A study of Mus musculus with 8 samples.

Results

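Liver transcripts of mice that received the Porcupine inhibitor LGK974 and LPS (LGK974 group) were compared with those of mice that received LPS alone (endotoxemic group). The comparison rests on 4 libraries, LGK974 libraries 1 and 2 and endotoxemic libraries 1 and 2, of 6 distinct libraries in the series. The series holds 8 libraries as deposited, but endotoxemic libraries 3 and 4 hold the same counts as libraries 1 and 2 on every row and were counted once. The remaining 2 libraries come from saline-injected mice (control group) and are given beside the results as the untreated level.

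All mice were C57BL/6 of 4 weeks of age and 18 to 20 g, and the labels describe them as male. Endotoxemic mice were injected i.p. with LPS, the outer-membrane endotoxin of Gram-negative bacteria, at 25 mg/kg, and control mice with saline. The labels of the LGK974 libraries name only LGK974. Its dose of 60 mg/kg and the LPS that followed it are taken from the study's text, which gives LGK974 2 h before LPS in most of its experiments. The labels number the libraries without saying whether each came from its own mouse, so p-values measure only the spread between these libraries, which may be technical.

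Porcupine is the acyltransferase that attaches a lipid to Wnt ligands so that they can be secreted, and LGK974 blocks it. In endotoxemia the liver is both a target and a source of the response. Hepatocytes reduce much of their metabolic transcription and raise secreted acute-phase proteins, while interferon and cytokine signals act on hepatocytes, Kupffer cells (the resident macrophages) and sinusoidal endothelial cells. Results are given here for autosomal genes outside the cytokine, NF-κB and Wnt genes.

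The groups differed by more than the drug. *Xist*, the X-linked RNA of female cells, was counted 3 and 7 times in the LGK974 libraries, against 1171 and 1884 times in the endotoxemic pair and 1444 and 3115 times in the control pair. The Y-linked *Ddx3y* had 0 counts in each control and endotoxemic library and 1755 and 1392 in the LGK974 libraries. *Eif2s3y*, also Y-linked, had 0 counts in those 4 libraries and 323 and 190 in the LGK974 libraries. The label of male mice was thus met only by the LGK974 libraries, and the LGK974 and sex differences cannot be told apart. All 4 libraries compared carried an LPS response: *Lcn2*, an iron-sequestering protein induced by endotoxin, stood at 20.2 and 13.8 CPM (counts scaled to library size, normalized by TMM) in control, at 3371 and 4677 in endotoxemic and at 2839 and 2884 in LGK974 libraries. The hepatocyte transcript *Alb* had 22446 CPM as its lowest value in any library.

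Total counts ranged from 9142116 to 15222439 per library. A value of 3 counts, taken as the smallest signal a library can show, was 0.327 and 0.320 CPM in the endotoxemic libraries and 0.226 and 0.203 CPM in the LGK974 libraries after normalization. It covers counting error only. The LGK974 libraries differed more from each other (SD of the log2 difference over genes 0.789) than the endotoxemic libraries (0.575), and endotoxemic and LGK974 libraries differed by 0.895 to 1.03. Of 23282 rows, 579 carried a symbol that breaks the genomic order of the table and are not reported. They include 13 of 32 listed acute-phase genes and 12 of 34 listed cell death genes.

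Of 11643 reported genes tested, 327 were higher in the LGK974 group (2.81%) and 305 were lower (2.62%), together 5.43%, at an adjusted p below 0.05. In all 632 of them the libraries of both groups did not overlap, but non-overlap alone was common: 52.1% of all reported genes had it, 26.7% with both LGK974 libraries above and 25.4% with both below. The median log2 fold change of all reported genes was 0.04, so more of them lay above 0 than below. In the same test, 2607 of the 11643 genes had an unadjusted p below 0.05. Calls depended on single libraries. They numbered 22 higher and 42 lower without endotoxemic library 1, 19 and 20 without endotoxemic library 2, 1085 and 924 without LGK974 library 1, 568 and 533 without LGK974 library 2, and 116 and 147 or 114 and 142 without control library 1 or 2. No call changed sign in any of these fits. In all, 34 of the 632 genes passed in each of the 6 fits, and 20 of these are on the sex-biased lists. The other 14 were *Nudt7*, *Tef*, *Dbp*, *St3gal5*, *G0s2*, *Enpp2*, *Gpd1* and *0610005C13Rik*, which rose, and *F830016B08Rik*, *Slfn4*, *Irf1*, *Parp14*, *Mndal* and *Hba-a2*, which fell. Of 124 genes that passed and were taken by the rule for named genes, 94 and 101 missed the threshold without endotoxemic library 1 or 2, 49 and 52 without control library 1 or 2, and 1 and 7 without LGK974 library 1 or 2.

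The gene lists showed a drop of interferon-induced genes, higher transcripts of cholesterol synthesis and fatty acid oxidation, opposite shifts within the circadian clock, and the male pattern of sex-biased liver genes. Lists were chosen with earlier results of these data known, so their counts and medians describe these genes and test no theme. Of 632 called genes, 204 were on at least 1 of 57 lists and 38 were on the 2 lists of sex-biased genes.

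**Figure D1:**
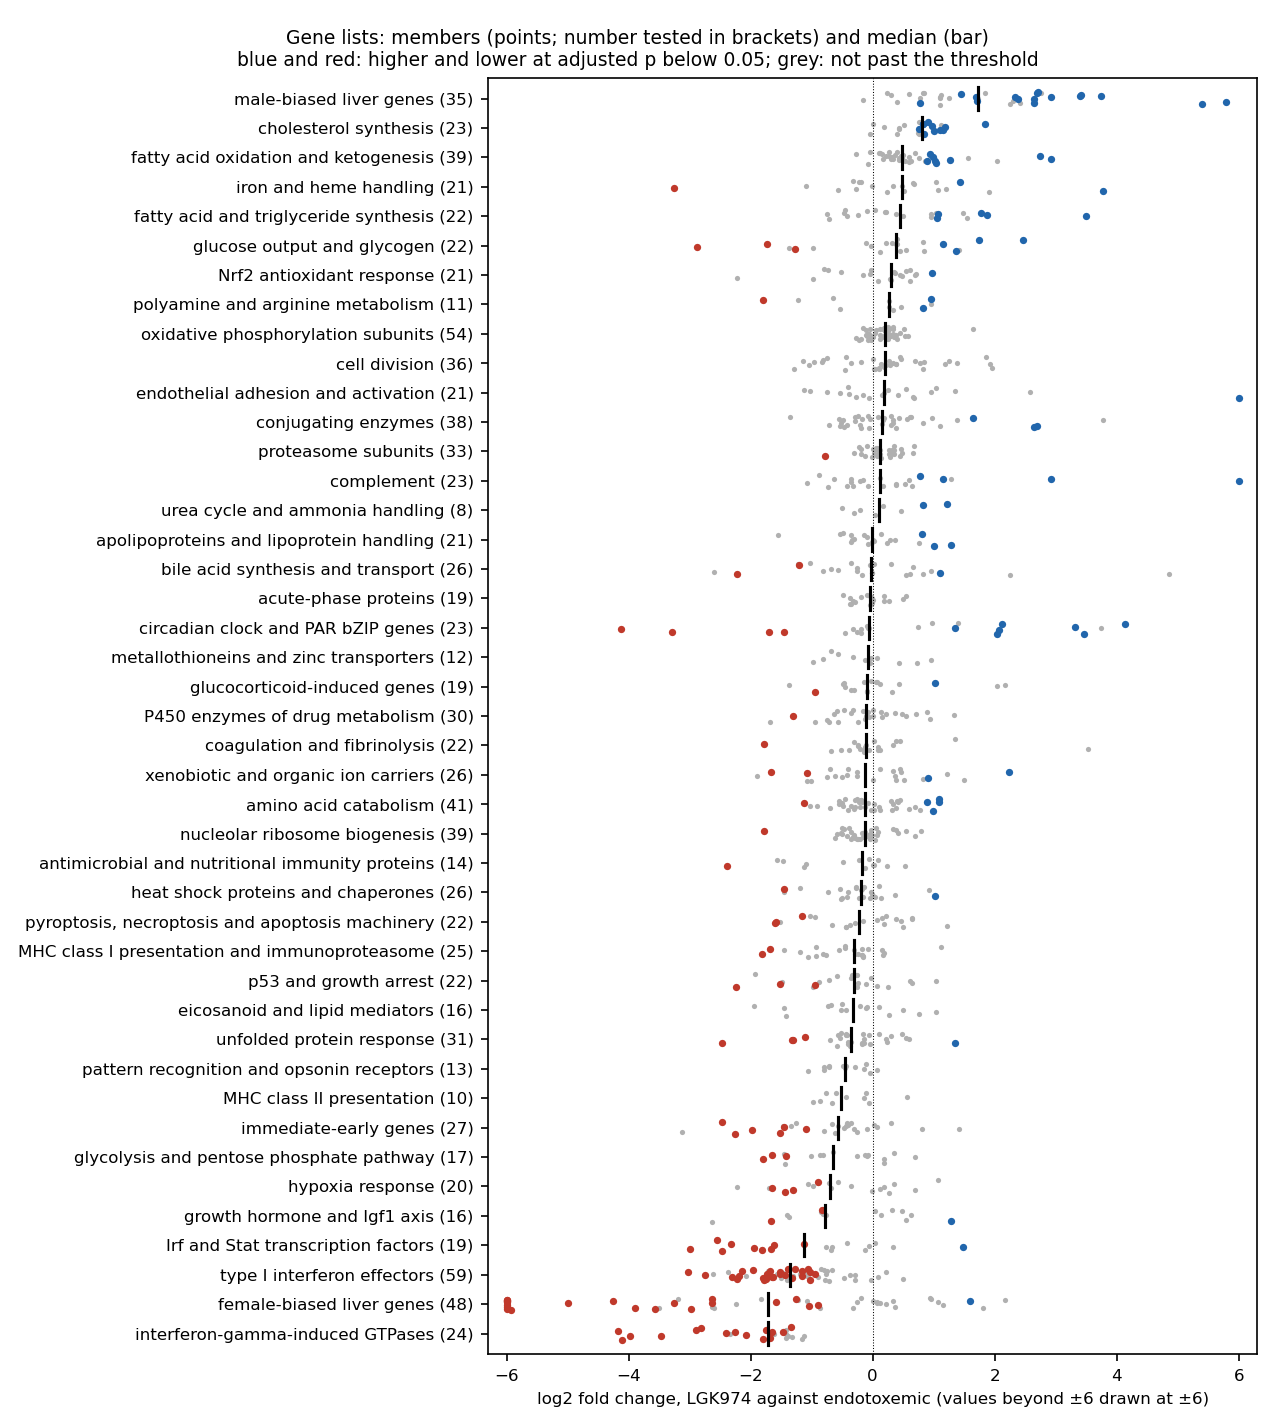
Members of the liver, immune and sex-biased gene lists by log2 fold change, LGK974 against endotoxemic, with the lists ordered by their median (black bar). Points are genes, blue and red where higher or lower at an adjusted p below 0.05. Interferon-gamma-induced GTPases (median -1.72), female-biased genes (-1.71) and type I interferon effectors (-1.36) lie at the bottom, and male-biased genes (1.73) and cholesterol synthesis (0.82) at the top.

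The interferon-induced GTPases were the immune list with the lowest median. These large GTPases (Irg and Gbp families) are induced by interferon-gamma and act on vacuoles that hold pathogens. Of 24 tested members, 15 were lower, none was higher, and the median log2 fold change was -1.72 against 0.04 over all reported genes. Both LGK974 libraries were below both endotoxemic libraries for 24 of 24 members. The 24 come from 28 listed symbols, of which 2 were second names of a row, 1 was out of order and 1 was too low to test.

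Short upstream windows of 3 called members are shown because most members with a window share a sequence. Windows run from 250 bases before to 50 bases after the RefSeq start (GRCm38.p6), and capitals mark the letters GAAANNGAA on either strand, which resemble an interferon-stimulated response element. The window of *Gm12185* is chr11:48927133-48927432 on the minus strand, that of *Gm12250* is chr11:58183593-58183892 on the plus strand and that of *Gbp7* is chr3:142530086-142530385 on the plus strand.
Gm12185: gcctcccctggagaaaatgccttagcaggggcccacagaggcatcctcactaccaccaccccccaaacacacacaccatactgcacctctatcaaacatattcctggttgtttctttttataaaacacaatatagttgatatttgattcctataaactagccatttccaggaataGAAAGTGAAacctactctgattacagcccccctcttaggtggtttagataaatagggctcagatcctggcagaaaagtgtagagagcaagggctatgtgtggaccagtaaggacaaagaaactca
Gm12250: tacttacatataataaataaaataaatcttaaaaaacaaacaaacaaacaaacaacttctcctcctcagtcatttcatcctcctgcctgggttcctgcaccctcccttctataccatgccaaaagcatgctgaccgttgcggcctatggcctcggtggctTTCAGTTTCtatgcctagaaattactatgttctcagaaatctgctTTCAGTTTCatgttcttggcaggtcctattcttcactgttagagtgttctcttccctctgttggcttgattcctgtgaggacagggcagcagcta
Gbp7: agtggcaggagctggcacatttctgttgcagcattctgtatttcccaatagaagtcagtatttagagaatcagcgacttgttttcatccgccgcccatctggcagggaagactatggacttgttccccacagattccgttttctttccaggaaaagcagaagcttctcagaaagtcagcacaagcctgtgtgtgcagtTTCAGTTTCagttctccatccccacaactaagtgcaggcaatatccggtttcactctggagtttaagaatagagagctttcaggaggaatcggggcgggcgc

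A window was found for 11 of the 24 tested GTPase genes, and 10 of them held GAAANNGAA (90.9%), against 9.76% of 27025 genes with a window and 8.62% of the tested reported genes. The share did not separate called from other members, with 7 of 8 and 3 of 3. The letters TTCNNNGAA, which resemble a Stat-binding GAS element and can overlap the first motif, were in 7 of 11 windows against 9.55% of all genes, in 7 of 8 windows of called members and in 0 of 3 of the others. In the list of Irf and Stat factors they were in 5 of 6 windows of called members and 1 of 9 of the others. Type I interferon effectors went the other way, with 2 of 23 windows of called members and 6 of 24 of the others. A match is a run of letters in the window, not a site shown to be bound.

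*Tgtp1* stood at 3.99 and 3.73 CPM in control, 295 and 314 CPM in endotoxemic and 65.6 and 16.4 CPM in LGK974 libraries (log2 fold change -2.89, SE 0.51, adjusted p = 0.0169). *Tgtp2*, a near-identical neighbour, had similar values, and reads of both cannot be assigned with certainty. *Gm12250* (also known as *Irgb10*) fell from 235 and 280 CPM to 39.9 and 6.70 CPM (log2 fold change -3.47, SE 0.64, adjusted p = 0.0195). For both genes the LGK974 libraries were clearly below the endotoxemic libraries and yet far apart from each other.

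*Igtp*, which guards membranes against attack by other GTPases of the family, was at 364 and 469 CPM in endotoxemic and 122 and 36.0 CPM in LGK974 libraries (log2 fold change -2.40, adjusted p = 0.023). *Irgm2*, of the same regulatory subgroup, fell from 241 and 171 CPM to 64.5 and 33.6 CPM (log2 fold change -2.07, adjusted p = 0.0111). *Gbp7*, a guanylate-binding protein, fell from 342 and 326 CPM to 129 and 62.5 CPM (log2 fold change -1.80, adjusted p = 0.0149). *F830016B08Rik* had the second largest fall among the members that passed, from 135 and 157 CPM to 13.3 and 3.65 CPM, and was at 14.1 and 17.8 CPM in control (log2 fold change -4.11, adjusted p = 0.00399). *Gbp2*, a member that did not pass the test, stood at 829 and 890 CPM in endotoxemic and 611 and 156 CPM in LGK974 libraries (adjusted p = 0.196).

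LGK974 library 2 was below LGK974 library 1 for all 24 tested GTPases, against 50.2% of reported genes. The summed level of the list was 1021 and 985 CPM in control, 11603 and 11589 CPM in endotoxemic and 5550 and 1836 CPM in LGK974 libraries. The count of 15 lower genes became 1 without either endotoxemic library, 7 without either control library and 24 without LGK974 library 1.

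Type I interferon effectors, the antiviral genes that interferon receptors switch on, moved the same way. Of 59 tested members, 27 were lower and none was higher, with a median log2 fold change of -1.36, and 52 had both LGK974 libraries below both endotoxemic libraries. *Parp14*, an ADP-ribosyltransferase, fell from 116 and 127 CPM to 25.7 and 26.2 CPM, with 18.9 and 18.3 CPM in control (log2 fold change -2.23, SE 0.19, adjusted p = 0.000639). Its LGK974 libraries were nearly equal and close to control. *Trim30a*, a ubiquitin ligase of the tripartite-motif family, fell from 180 and 242 CPM to 55.5 and 29.5 CPM (log2 fold change -2.31, adjusted p = 0.00794). *Trim34a* fell from 16.6 and 18.5 CPM to 3.09 and 2.17 CPM (log2 fold change -2.74, adjusted p = 0.00368).

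*Ifit1*, which binds viral RNA ends, fell from 290 and 291 CPM to 125 and 44.3 CPM (log2 fold change -1.78, adjusted p = 0.0365). *Rsad2* (viperin), an antiviral enzyme, fell from 233 and 249 CPM to 113 and 55.2 CPM (log2 fold change -1.52, adjusted p = 0.0237). In both genes LGK974 library 1 was more than 2 times as high as LGK974 library 2. *Ifi203* and *Mnda*, DNA-binding proteins of the interferon-inducible p200 group, fell to 38.6 and 31.8 CPM and to 41.5 and 35.0 CPM from 120 and 125 CPM and from 118 and 130 CPM. The letters GAAANNGAA were in 14 of 23 windows of called effectors and in 13 of 24 windows of the others. The count of 27 lower genes became 6 and 1 without endotoxemic library 1 or 2, 15 without either control library and 49 without LGK974 library 1.

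Irf and Stat transcription factors and their regulators fell in 9 of 19 tested members, with a median log2 fold change of -1.13. *Irf8*, a factor of macrophages and dendritic cells that interferon also induces, was at 13.6 and 15.2 CPM in control, 192 and 190 CPM in endotoxemic and 47.9 and 20.8 CPM in LGK974 libraries (log2 fold change -2.48, SE 0.34, adjusted p = 0.00684). *Irf1*, the early transcription factor of the interferon-gamma response, fell from 399 and 213 CPM to 66.2 and 56 CPM (log2 fold change -2.33, SE 0.32, adjusted p = 0.00668). The LGK974 libraries lay between control and endotoxemic libraries for both genes.

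*Batf2* and *Batf3*, basic leucine zipper partners of Irf factors, fell from 25.0 and 16.9 CPM to 5.06 and 2.10 CPM and from 7.97 and 3.73 CPM to 0.981 and 0.474 CPM. *Socs1*, a feedback inhibitor of Jak kinases, fell from 168 and 107 CPM to 47.3 and 24.6 CPM (log2 fold change -1.94, adjusted p = 0.0284). The count of 9 lower genes became 4 and 1 without endotoxemic library 1 or 2.

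**Figure D2:**
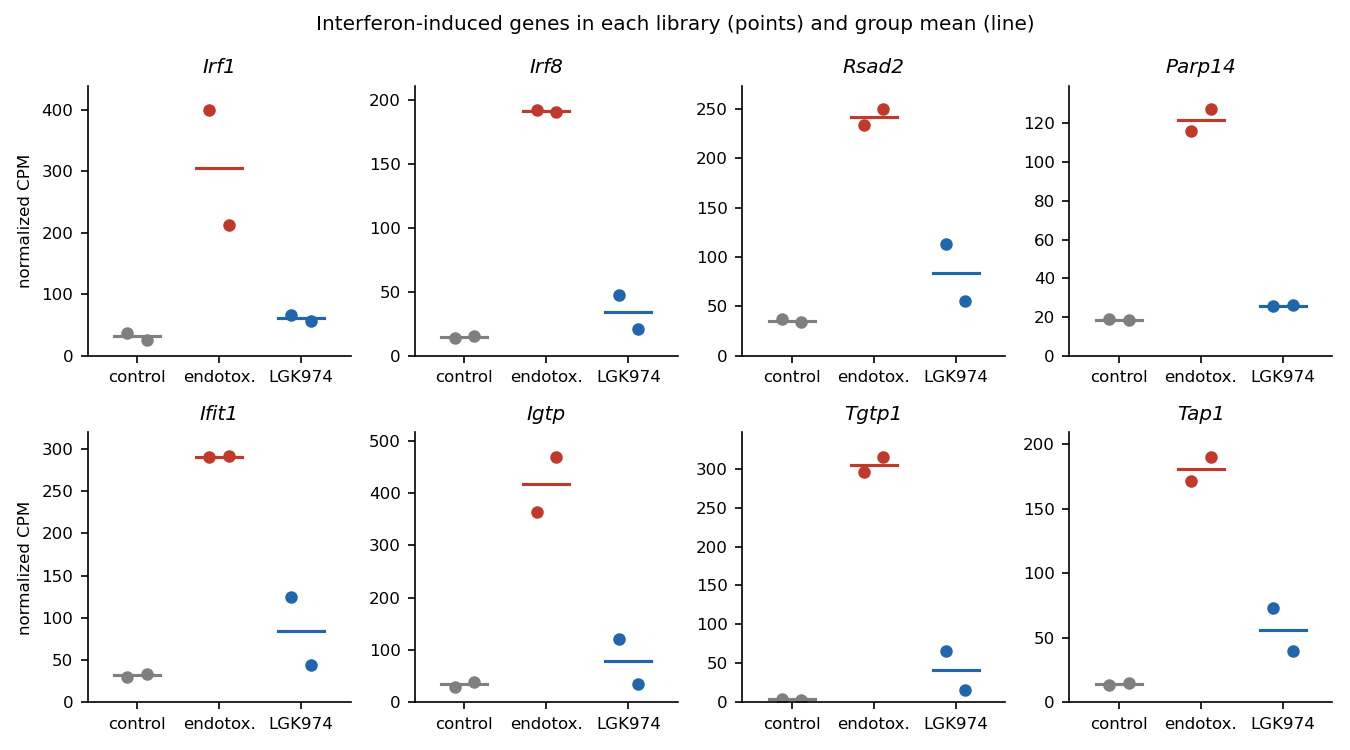
Normalized CPM of 8 interferon-induced genes in each library (points) and group mean (lines), with a linear axis from 0 in each panel. In all 8 panels both LGK974 points lie below both endotoxemic points and above the control points, except that *Igtp* in LGK974 library 2 (36.0 CPM) is within the control range of 29.6 to 39.0 CPM.

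MHC class I presentation fell in 2 of 25 tested members. *Tap1*, a subunit of the peptide transporter, fell from 171 and 190 CPM to 73.1 and 39.7 CPM (log2 fold change -1.68, adjusted p = 0.0142). *Nlrc5*, the transactivator of class I genes, fell from 16.8 and 20.0 CPM to 4.98 and 5.48 CPM (log2 fold change -1.81, adjusted p = 0.011). The median of the list was -0.30, and none of its members had both LGK974 libraries above. Without either endotoxemic library no member of it passed. By edgeR 0 of 10 MHC class II genes passed, and 1 by DESeq2. At an unadjusted edgeR p below 0.05 were 4 of these class II genes, against 2607 of 11643 over all reported genes. Their median was -0.52, 9 of 10 had a log2 fold change below 0, and 4 had both LGK974 libraries below. *Ctss*, a lysosomal protease of antigen-presenting cells, was at 65.3 and 58.0 CPM in endotoxemic and 40.2 and 41.1 CPM in LGK974 libraries (log2 fold change -0.60, adjusted p = 0.0971). The 1 member above 0 was *Ctsl*, a related protease and the most abundant of the list, at 498 and 546 CPM in endotoxemic and 968 and 573 CPM in LGK974 libraries.

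Other immune lists had few calls. Of 14 tested antimicrobial genes, 1 fell: *Irg1* (now *Acod1*), the enzyme that makes itaconate, went from 61.0 and 70.4 CPM to 17.1 and 8.12 CPM, and control libraries had 0 (log2 fold change -2.38, adjusted p = 0.0113). DESeq2 called 3 of the 14 lower, adding *Chil1* and *Hamp* (hepcidin). Of 22 cell death genes, 3 fell, which are anti-apoptotic members of the Bcl2 family: *Bcl2l1* from 92.9 and 109 CPM to 57.7 and 32.2 CPM, and *Bcl2a1b* and *Bcl2a1d*, near-identical copies whose reads cannot be separated with certainty. DESeq2 called 6 lower, adding *Mlkl*, *Cflar* and the pro-apoptotic *Bcl2l11*, and the edgeR count became 0 without either endotoxemic library and 8 without LGK974 library 1. By edgeR 0 of 16 eicosanoid genes and 0 of 13 pattern recognition receptors passed, and 1 and 0 by DESeq2. At an unadjusted edgeR p below 0.05 were 3 of each, against 2607 of 11643 over all reported genes. The pattern recognition receptors had a median of -0.45, with 12 of 13 below 0, 8 with both LGK974 libraries below and 0 with both above. *Fcgr4*, an activating receptor for antibody, was at 63.0 and 87.1 CPM in endotoxemic and 46.3 and 25.6 CPM in LGK974 libraries (log2 fold change -1.06, adjusted p = 0.113). *Marco*, a scavenger receptor of macrophages, was at 96.6 and 74.5 CPM in endotoxemic and 60.8 and 97.2 CPM in LGK974 libraries, and the groups overlapped. *Tek*, the angiopoietin receptor, was the 1 call of 21 endothelial activation genes, with 0 counts in both endotoxemic libraries and 0.604 and 1.69 CPM in the LGK974 libraries (adjusted p = 0.041).

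Markers of immune cells were read beside these falls. By edgeR 0 of 11 neutrophil and 0 of 8 monocyte markers passed, and 1 and 2 by DESeq2. At an unadjusted edgeR p below 0.05 were 2 and 3, against 2607 of 11643 over all reported genes. Below 0 were 10 of 11 and 6 of 8, with medians of -0.47 and -0.60, and both LGK974 libraries were below for 7 and 4 and above for 0. Their summed level was 3556 and 4860 CPM and 275 and 264 CPM in endotoxemic, against 2973 and 3026 CPM and 188 and 199 CPM in LGK974 libraries. *Lcn2*, which hepatocytes also make, held most of the first sum. *Ngp*, a granule protein of neutrophils, was at 28.9 and 30.2 CPM in endotoxemic and 27.0 and 23.4 CPM in LGK974 libraries, and at 0 in control. All 7 B and plasma cell markers tested had a log2 fold change below 0, with a median of -1.76, and 5 had both LGK974 libraries below. *Cd22*, an inhibitory receptor of B cells, was the 1 that passed, with 10 and 13 counts in endotoxemic and 1 and 0 counts in LGK974 libraries (adjusted p = 0.0446), and it missed the threshold without any one of the endotoxemic or control libraries.

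Of 16 Kupffer cell markers, 13 had a log2 fold change below 0, with a median of -0.64, and both LGK974 libraries were below for 9 and above for 2. By edgeR 2 were lower and 1 higher, *C6*, which is on the male-biased list. DESeq2 called 6 lower, adding *Id3*, *Mpeg1*, *C1qb* and *C1qc*. Their sum was 531 and 581 CPM in endotoxemic and 343 and 441 CPM in LGK974 libraries. *Clec4f*, the lectin that defines mouse Kupffer cells, fell from 21.4 and 18.3 CPM to 9.06 and 7.11 CPM, with 37.0 and 36.5 CPM in control (log2 fold change -1.30, adjusted p = 0.0187). *Fabp7* fell from 3.49 and 3.84 CPM to 0.604 and 0.609 CPM. Without either endotoxemic library, and also without either control library, both kept their sign and missed the threshold. Of 9 T and NK cell markers tested, 8 had a log2 fold change below 0, 5 had both LGK974 libraries below and the median was -1.32. The 1 marker that passed was the exception, *Cd28*, which was higher (13.1 and 19.6 CPM against 2.51 and 2.45 CPM) and missed the threshold without either endotoxemic library, and *Cd3e*, *Trac* and most other defining T cell markers were too low to test. In bulk liver, fewer cells of a type and less RNA per cell cannot be told apart, and the part of cell content in the interferon result was not tested.

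Cholesterol synthesis was the metabolic list with the highest median. The pathway converts acetyl-CoA through mevalonate and squalene to cholesterol. Of 23 tested members, 11 rose and none fell, with a median log2 fold change of 0.82, and 19 had both LGK974 libraries above both endotoxemic libraries. The other 2 of 25 listed genes lie on the X chromosome.

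Among the early steps, *Hmgcs1*, which makes HMG-CoA, rose from 329 and 349 CPM to 612 and 663 CPM, with 433 and 441 CPM in control (log2 fold change 0.91, SE 0.18, adjusted p = 0.023). *Mvk*, mevalonate kinase, rose from 8.07 and 9.17 CPM to 24.8 and 36.7 CPM (log2 fold change 1.83, SE 0.29, adjusted p = 0.0116). *Mvd*, which decarboxylates mevalonate diphosphate, rose from 32.2 and 26.1 CPM to 70.7 and 58.5 CPM (log2 fold change 1.15, adjusted p = 0.0214). Both LGK974 libraries of these 3 genes were also above both control libraries.

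Among the sterol steps, *Lss*, lanosterol synthase, rose from 20.8 and 22 CPM to 46.0 and 45.6 CPM (log2 fold change 1.10, adjusted p = 0.0263). *Hsd17b7* rose from 69.8 and 74.3 CPM to 185 and 144 CPM (log2 fold change 1.19, adjusted p = 0.0185). *Insig1*, the sterol-sensing brake on the pathway, rose with its enzymes, from 32.6 and 26.1 CPM to 53.8 and 50.6 CPM (log2 fold change 0.83, adjusted p = 0.0464). No gene of the list was on the sex-biased lists, which are not complete and cannot separate LGK974 from sex. The count of 11 became 0 without either endotoxemic library, 2 without either control library and 16 and 15 without LGK974 library 1 or 2.

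The letters TCACNCCAC, which resemble a sterol response element, were in 1 of 15 windows of cholesterol genes, that of *Hmgcs1*, against 1.44% of all genes.

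Fatty acid oxidation and ketogenesis rose in 8 of 39 tested members, with none lower and a median log2 fold change of 0.49. Both LGK974 libraries were above both endotoxemic libraries for 25 of 39. *Ppara*, the nuclear receptor that drives the fasting response of hepatocytes, was at 293 and 360 CPM in control, 12.9 and 16.0 CPM in endotoxemic and 61.4 and 132 CPM in LGK974 libraries (log2 fold change 2.74, SE 0.35, adjusted p = 0.00514). *Cpt1a*, which admits fatty acids to mitochondria, rose from 48.8 and 43.0 CPM to 96.8 and 84.5 CPM (log2 fold change 0.98, adjusted p = 0.023). *Cpt2*, its partner on the inner membrane, rose from 40.2 and 33.6 CPM to 62.4 and 74.5 CPM, against 102 and 82.0 CPM in control (log2 fold change 0.89, adjusted p = 0.0459). These LGK974 values lay between endotoxemic and control values.

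*Acot2*, a mitochondrial thioesterase, had the largest rise of the list, from 2.29 and 1.71 CPM to 15.6 and 15 CPM (log2 fold change 2.93, adjusted p = 0.00242). *Nudt7*, a peroxisomal hydrolase of coenzyme A outside the list, was the largest rise among genes with at least 5 CPM in a group that had more than 1 count in an endotoxemic library and are on no sex-biased list. It stood at 191 and 194 CPM in control, 8.73 and 7.35 CPM in endotoxemic and 240 and 145 CPM in LGK974 libraries (log2 fold change 4.58, SE 0.30, adjusted p = 0.00011). The count of 8 became 1 and 0 without endotoxemic library 1 or 2, 3 without either control library, and 13 and 14 without LGK974 library 1 or 2.

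Fatty acid and triglyceride synthesis rose in 5 of 22 tested members, with none lower and a median of 0.44. Both LGK974 libraries were above both endotoxemic libraries for 11 of 22 and below for 5, and the list summed to 1689 and 2069 CPM in endotoxemic and 2680 and 1213 CPM in LGK974 libraries. *Gpam*, which starts glycerolipid synthesis, was at 0.218 and 0.213 CPM in endotoxemic and 2.49 and 2.57 CPM in LGK974 libraries, near its control values of 3.43 and 2.81 CPM (adjusted p = 0.0217). *Lpin2*, a phosphatidate phosphatase, rose from 15.2 and 10.4 CPM to 36.0 and 58.0 CPM (log2 fold change 1.88, adjusted p = 0.00937). *Tkfc*, a fructose-metabolizing kinase, rose from 36.8 and 33.2 CPM to 160 and 79.9 CPM (log2 fold change 1.78, adjusted p = 0.0154). *Acly*, which supplies acetyl-CoA to both lipid pathways, rose from 26.2 and 20.9 CPM to 43.1 and 55.4 CPM (log2 fold change 1.07, adjusted p = 0.0264). Genes of fatty acid synthesis and of fatty acid oxidation were therefore both among the rises. The count of 5 became 0 without either endotoxemic library and 2 without either control library.

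Glucose output and glycogen genes split, with 4 of 22 higher and 3 lower. *Pck1*, the rate-limiting enzyme of gluconeogenesis, was at 2590 and 3250 CPM in control, 102 and 116 CPM in endotoxemic and 416 and 788 CPM in LGK974 libraries (log2 fold change 2.47, SE 0.31, adjusted p = 0.00448). *Slc37a4*, the transporter that feeds glucose 6-phosphatase, rose from 9.71 and 8.74 CPM to 31.2 and 30.3 CPM (log2 fold change 1.74, adjusted p = 0.00305). *Gys2*, liver glycogen synthase, rose from 3.71 and 4.58 CPM to 11.1 and 10.4 CPM (log2 fold change 1.37, adjusted p = 0.0306).

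The members that fell were *Irs2*, an insulin receptor substrate, and *Ppp1r3c* and *Ppp1r3g*, glycogen-targeting subunits of protein phosphatase 1. *Ppp1r3c* fell from 17.2 and 20.9 CPM to 4.68 and 6.77 CPM (log2 fold change -1.73, adjusted p = 0.0105). *Ppp1r3g* was at 77.1 and 75.6 CPM in control and below 1 CPM in all 4 libraries compared. The 4 higher genes became 1 and 0 without endotoxemic library 1 or 2, and the 3 lower genes became 0 without either.

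Glycolysis and pentose phosphate genes fell in 3 of 17 tested members and rose in none, with a median of -0.66. *Hk2*, the hexokinase that is induced in inflammation, fell from 31.6 and 31.0 CPM to 8.30 and 9.74 CPM, with 3.43 and 2.94 CPM in control (log2 fold change -1.79, SE 0.25, adjusted p = 0.00684). *Slc2a1*, the glucose transporter Glut1, fell from 48.2 and 48.5 CPM to 14.5 and 16.3 CPM (log2 fold change -1.65, SE 0.21, adjusted p = 0.00469). *Pfkl*, liver phosphofructokinase, fell from 63.9 and 81.8 CPM to 22.4 and 32.2 CPM (log2 fold change -1.41, adjusted p = 0.0187).

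*Slc2a1* is also on the hypoxia list, of which 4 of 20 tested members fell and none rose. *Vegfa*, the endothelial growth factor, fell from 56.5 and 50.2 CPM to 19.2 and 20.2 CPM, below control (log2 fold change -1.43, adjusted p = 0.00801). *Egln3*, an oxygen-sensing prolyl hydroxylase, and *Hilpda*, a lipid droplet protein, fell by 1.30 and 0.90 on the log2 scale. The 3 glycolysis and 4 hypoxia calls each became 1 without endotoxemic library 1 and 0 without endotoxemic library 2.

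**Figure D3:**
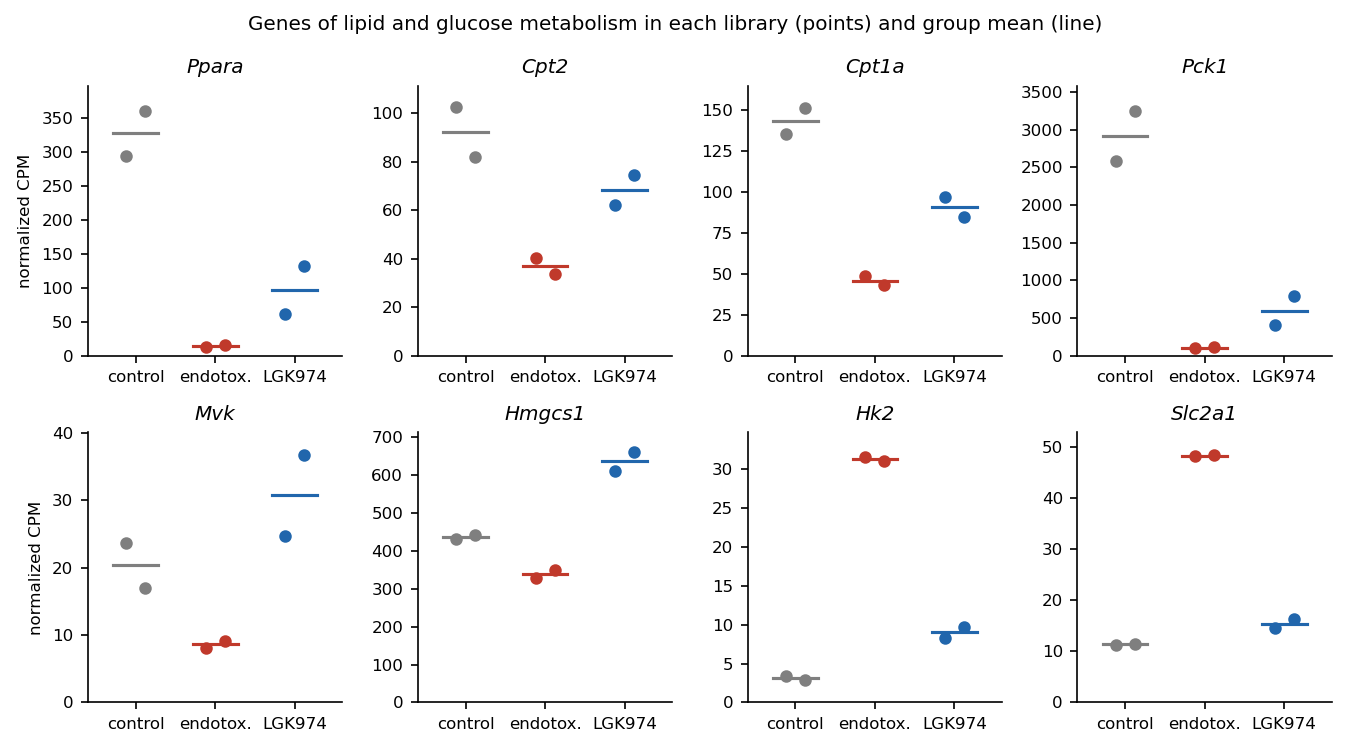
Normalized CPM of 8 genes of lipid and glucose metabolism in each library (points) and group mean (lines), with a linear axis from 0 in each panel. *Ppara*, *Cpt2*, *Cpt1a* and *Pck1* are lowest in the endotoxemic libraries with the LGK974 points between them and control, *Mvk* and *Hmgcs1* are highest in the LGK974 libraries, and *Hk2* and *Slc2a1* are highest in the endotoxemic libraries.

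The circadian clock list had 7 members higher and 4 lower of 23 tested, so that its median was -0.07 although nearly as many members passed as did not. The clock is a feedback loop in which Arntl (Bmal1) with Clock or Npas2 activates Per, Cry, Nr1d and the PAR bZIP genes, which in turn restrain it. *Tef*, a PAR bZIP factor of detoxification genes, was at 108 and 97.9 CPM in control, 5.89 and 5.22 CPM in endotoxemic and 62.5 and 60.5 CPM in LGK974 libraries (log2 fold change 3.47, SE 0.22, adjusted p = 9.91e-05). *Dbp*, its relative, rose from 1.42 and 1.28 CPM to 14.4 and 12.7 CPM (log2 fold change 3.32, SE 0.28, adjusted p = 0.000639). *Hlf*, the remaining factor of that family, rose from 9.82 and 8.53 CPM to 27.2 and 19.6 CPM (log2 fold change 1.35, adjusted p = 0.0181). LGK974 libraries lay below control and above endotoxemic libraries for each of the 3.

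Among the genes that repress the loop, *Per2* rose from 1.20 and 1.28 CPM to 32.6 and 11.2 CPM (log2 fold change 4.13, SE 0.58, adjusted p = 0.00685). *Nr1d2*, the nuclear receptor Rev-erb beta, rose from 15.5 and 20.5 CPM to 95.1 and 56 CPM (log2 fold change 2.07, adjusted p = 0.00694). *Cry2* rose from 1.85 and 2.56 CPM to 9.28 and 10.02 CPM (log2 fold change 2.12, adjusted p = 0.0105). *Ciart*, a repressor of the clock, rose from 2.95 and 2.66 CPM to 15.4 and 7.65 CPM. The libraries of each group did not overlap in any of these genes.

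Of the 4 members that fell, *Arntl* and *Npas2* encode activators and *Nfil3* and *Bhlhe41* repressors. *Arntl* fell from 11.3 and 7.35 CPM to 0.528 and 1.35 CPM (log2 fold change -3.28, SE 0.53, adjusted p = 0.0122). *Npas2* fell from 7.09 and 10.6 CPM to 0.453 and 0.541 CPM (log2 fold change -4.12, adjusted p = 0.0241). *Nfil3*, which opposes the PAR bZIP factors at the same sites, fell from 59.6 and 60.8 CPM to 24.7 and 19.5 CPM (log2 fold change -1.45, adjusted p = 0.0131), and *Bhlhe41* from 22.7 and 19.4 CPM to 7.55 and 5.48 CPM (log2 fold change -1.69, adjusted p = 0.0176). The 7 higher genes became 2 and the 4 lower genes 0 without either endotoxemic library. Livers were taken 6 h after LPS by the study's methods, and the hour of the day is not given in the sources used here.

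Upstream windows of *Tef* (chr15:81802423-81802722, plus strand) and *Ciart* (chr3:95882179-95882478, minus strand) are shown because both rose and hold the E-box letters CACGTG, the sequence that Arntl with its partner binds. Capitals mark each match.
Tef: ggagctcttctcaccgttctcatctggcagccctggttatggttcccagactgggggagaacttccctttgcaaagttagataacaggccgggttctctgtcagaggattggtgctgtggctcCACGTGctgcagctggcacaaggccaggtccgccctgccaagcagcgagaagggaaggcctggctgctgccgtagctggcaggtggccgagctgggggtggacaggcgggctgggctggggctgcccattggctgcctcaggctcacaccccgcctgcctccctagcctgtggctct
Ciart: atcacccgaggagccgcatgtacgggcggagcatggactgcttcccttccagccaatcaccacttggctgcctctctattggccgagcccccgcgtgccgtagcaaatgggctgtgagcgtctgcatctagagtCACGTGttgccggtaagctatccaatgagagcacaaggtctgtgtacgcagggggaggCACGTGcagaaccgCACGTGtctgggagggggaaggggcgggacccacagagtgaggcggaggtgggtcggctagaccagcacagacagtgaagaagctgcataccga

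CACGTG was in 5 of 19 windows of tested clock genes and in 3 of 10 of called ones, the third being that of *Bhlhe41*, which fell. It was in 8.09% of all genes with a window and in 11.8% of the tested reported genes. The D-box letters TTATGTAA, read by the PAR bZIP factors and Nfil3, were in 0 of 10 windows of called clock genes and in 1.11% of all genes.

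**Figure D4:**
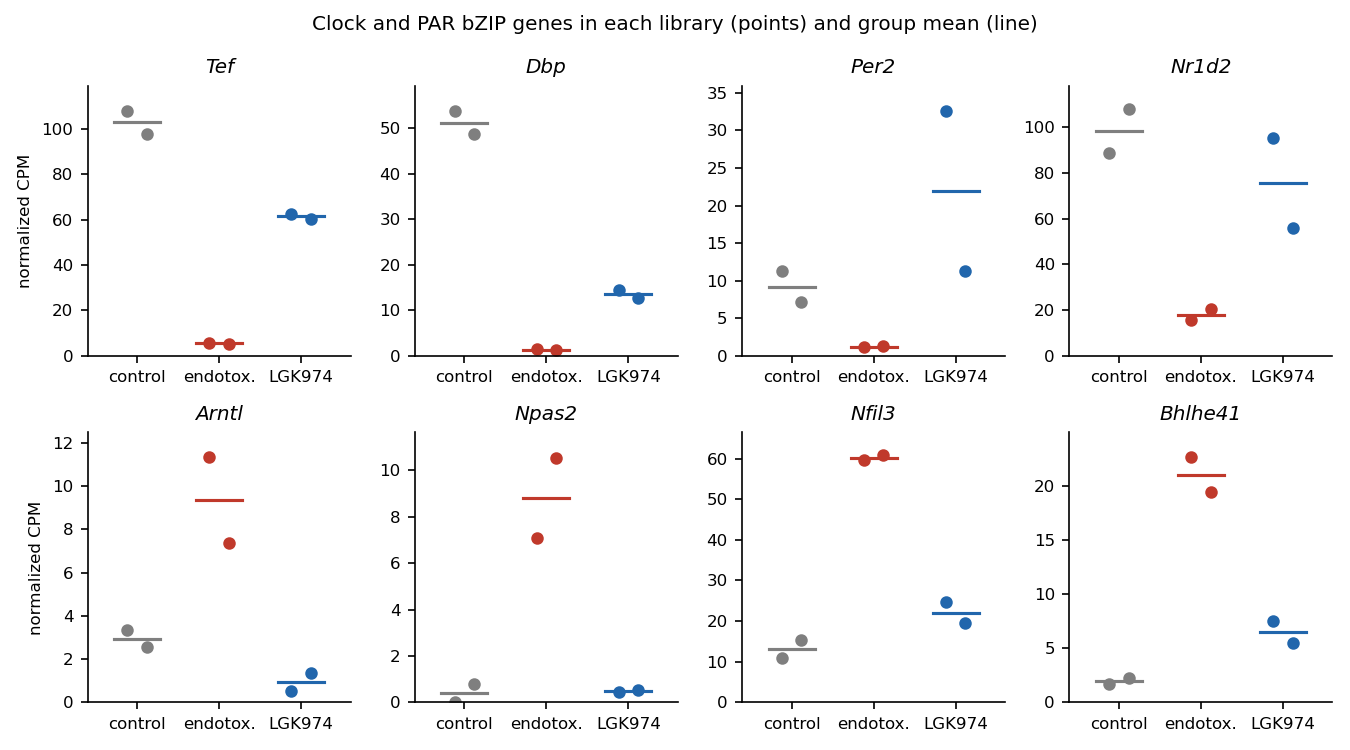
Normalized CPM of 8 clock and PAR bZIP genes in each library (points) and group mean (lines), with a linear axis from 0 in each panel. *Tef*, *Dbp*, *Per2* and *Nr1d2* are higher in the LGK974 than in the endotoxemic libraries, and *Arntl*, *Npas2*, *Nfil3* and *Bhlhe41* are lower.

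Immediate-early genes, which stimuli switch on without new protein synthesis, fell in 6 of 27 tested members and rose in none, with a median of -0.56. *Egr1*, a zinc finger factor, fell from 94.2 and 91.3 CPM to 29.6 and 17.8 CPM, which spans its control values of 21.2 and 23.3 CPM (log2 fold change -1.97, SE 0.26, adjusted p = 0.0053). *Atf3*, a stress-induced bZIP factor, fell from 14.7 and 17.6 CPM to 4.68 and 1.22 CPM (log2 fold change -2.46, adjusted p = 0.0385). *Maff* fell from 20.1 and 33.3 CPM to 6.19 and 4.94 CPM (log2 fold change -2.26, adjusted p = 0.0275). *Btg2*, an antiproliferative gene, was also 1 of 3 falls among 22 genes of p53 and growth arrest. *Gadd45b* fell from 26.8 and 31.8 CPM to 7.40 and 5.01 CPM (log2 fold change -2.24, adjusted p = 0.00603), and *Cdkn1a* (p21) from 460 and 408 CPM to 262 and 189 CPM, far above its control values of 9.28 and 9.35 CPM. The 6 immediate-early calls became 1 and 0, and the 3 of p53 and growth arrest 1 and 0, without endotoxemic library 1 or 2.

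The unfolded protein response had 4 of 31 members lower and 1 higher. *Creld2*, a chaperone-like protein of the endoplasmic reticulum, fell from 174 and 156 CPM to 76.8 and 56.8 CPM (log2 fold change -1.31, adjusted p = 0.0121). *Syvn1*, a ubiquitin ligase of the same compartment, fell from 223 and 169 CPM to 98.7 and 58.5 CPM. *Herpud1*, which acts with it in protein degradation, rose from 104 and 118 CPM to 333 and 231 CPM (log2 fold change 1.35, adjusted p = 0.0154). The 4 lower calls became 0 without either endotoxemic library and 1 without either control library, with no change of sign.

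Among secreted liver proteins the acute-phase list had 0 calls of 19 tested members by edgeR, 0 at an unadjusted p below 0.05 and 0 by DESeq2. *Hpx*, the heme-binding hemopexin, was at 2029 and 2377 CPM in control, 13309 and 16787 CPM in endotoxemic and 11876 and 17930 CPM in LGK974 libraries (log2 fold change -0.01, SE 0.25, adjusted p = 0.982). Its groups overlapped. Metallothioneins and zinc transporters also had 0 calls of 12 by edgeR, and 2 by DESeq2. At an unadjusted edgeR p below 0.05 were 6 of the 12, against 2607 of 11643 over all reported genes. *Mt1*, a metal-binding protein induced by endotoxin, was at 18772 and 18904 CPM in endotoxemic and 17193 and 13075 CPM in LGK974 libraries, against 1636 and 1578 CPM in control. For *Mt1* the log2 fold change was -0.32 with an SE of 0.20 (adjusted p = 0.39).

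Of 23 complement genes, 4 rose, and 2 of those, *C6* and *C8b*, are on the male-biased list. Both LGK974 libraries were above for 10 and below for 9, and DESeq2 called 4 higher and 4 lower, *C1qb* and *C1qc* among the latter. *C9*, the pore-forming component, rose from 29.4 and 33.7 CPM to 75.9 and 64.2 CPM (log2 fold change 1.15, adjusted p = 0.0229). *Cfd*, a fat-derived protease, had 0 and 0.107 CPM in endotoxemic and 2.42 and 7.17 CPM in LGK974 libraries. The 4 complement calls became 0 and 1 without endotoxemic library 1 or 2.

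Of 21 apolipoprotein genes, 3 rose: *Mttp*, which loads lipid on to apolipoprotein B, from 12.1 and 12.3 CPM to 22.9 and 36.3 CPM (log2 fold change 1.28, adjusted p = 0.0229), *Apoa4* by a log2 fold change of 1.00 and *Apoc2* by 0.80. Without any one of the endotoxemic or control libraries these 3 kept their sign and missed the threshold.

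Iron and heme genes held 1 of the larger rises. *Hfe2* (hemojuvelin), the co-receptor that induces hepcidin, was at 78.3 and 79.8 CPM in control, 1.96 and 4.26 CPM in endotoxemic and 23.6 and 62.3 CPM in LGK974 libraries (log2 fold change 3.78, SE 0.50, adjusted p = 0.00577). *Alas1*, the first enzyme of heme synthesis, rose from 113 and 92.4 CPM to 294 and 259 CPM (log2 fold change 1.43, adjusted p = 0.00668). *Hamp2*, a hepcidin relative on the female-biased list, fell from 645 and 576 CPM to 78.2 and 49.5 CPM. *Hamp*, the gene of hepcidin itself, was not called by edgeR and was called lower by DESeq2. *Hfe2* and *Alas1* were the 2 rises of 21 tested genes, and neither passed without either endotoxemic library.

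In nitrogen metabolism, *Slc25a13*, the mitochondrial aspartate carrier, rose from 18.5 and 13.3 CPM to 32.4 and 42.2 CPM (log2 fold change 1.23, adjusted p = 0.0217). It did not pass without either endotoxemic or either control library. Of 41 genes of amino acid catabolism, 4 rose (*Ftcd*, *Gcsh*, *Bckdha* and *Csad*, by log2 fold changes of 0.89 to 1.09) and 1 fell (*Got1*, from 136 and 153 CPM to 82.6 and 49.7 CPM). The list had 0 calls without any one of the endotoxemic or control libraries, and 6 higher and 14 lower without LGK974 library 1.

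Bile acid and drug handling showed few calls. *Abcb11*, the bile salt export pump, was at 342 and 357 CPM in control, 51.7 and 55.5 CPM in endotoxemic and 27.9 and 18.5 CPM in LGK974 libraries (log2 fold change -1.21, adjusted p = 0.0205). *Slco1a4*, an uptake carrier, also fell further from control, to 2.34 and 1.56 CPM from 8.62 and 9.49 CPM (log2 fold change -2.22, adjusted p = 0.00492). *Abcc2*, the canalicular exporter of conjugates, rose from 9.60 and 11.5 CPM to 17.0 and 28.6 CPM (log2 fold change 1.11, adjusted p = 0.048). These were the 3 calls of 26 bile acid genes. Their 1 rise and 2 falls became 0 and 1 without endotoxemic library 1 or either control library, 0 and 0 without endotoxemic library 2, and 4 and 6 without LGK974 library 1. Of 30 P450 genes of drug metabolism 1 passed: *Cyp2c37* fell from 84.0 and 105 CPM to 46.7 and 29.5 CPM. DESeq2 called 4 lower and 1 higher, edgeR called 11 lower and 3 higher without LGK974 library 1, and 0 passed without any one of the endotoxemic or control libraries. The P450 list summed to 3614 and 3742 CPM in endotoxemic and 4189 and 2765 CPM in LGK974 libraries, against 11267 and 12458 CPM in control.

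By edgeR 0 of 54 nuclear-encoded oxidative phosphorylation genes passed, with 0 by DESeq2 and a median of 0.20. At an unadjusted edgeR p below 0.05 were 4, against 2607 of 11643 over all reported genes. Of the 54, 39 had a log2 fold change above 0, and both LGK974 libraries were above for 27 and below for 4. Of 36 cell division genes 0 passed by edgeR, with 5 at an unadjusted p below 0.05 and 3 by DESeq2. Of 33 proteasome subunits 25 had a log2 fold change above 0, both LGK974 libraries were above for 16 and below for 2, and the sum was 5594 and 5297 CPM in endotoxemic and 6064 and 6151 CPM in LGK974 libraries. The 1 subunit that passed, *Psma1*, was lower. Of 39 genes of ribosome biogenesis 29 were below 0, both LGK974 libraries were below for 12 and above for 6, and 1 passed (*Heatr1*, lower, from 119 and 107 CPM to 43.3 and 22.5 CPM). Over all reported genes both were below for 25.4% and above for 26.7%. *Ccnd1*, cyclin D1, was at 237 and 229 CPM in endotoxemic and 162 and 76.7 CPM in LGK974 libraries (adjusted p = 0.104).

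Among the remaining liver lists, conjugating enzymes rose in 3 of 38, of which *Gstp1* and *Gstp2* are male-biased and *Ugt2b35* rose from 5.78 and 7.46 CPM to 12.2 and 29.2 CPM. Of the 38 enzymes, 17 had a log2 fold change below 0, and both LGK974 libraries were above for 12 and below for 7. Of 21 antioxidant genes of the Nrf2 response, *Gpx4*, the lipid peroxide reductase, rose from 28.4 and 27.1 CPM to 50.0 and 58.3 CPM (log2 fold change 0.97, adjusted p = 0.0269). DESeq2 called 1 of them higher and 3 lower, *Keap1*, *Txnrd1* and *Slc7a11*. Of 16 genes of the growth hormone and Igf1 axis, 2 fell and 1 rose. *Cish*, a feedback inhibitor of growth hormone signaling, fell from 27.4 and 41.6 CPM to 8.23 and 13.4 CPM, and *Igfals*, the circulating partner of Igf1, rose from 2.62 and 2.24 CPM to 6.87 and 5.01 CPM, against 88.4 and 95.4 CPM in control. Of 26 carriers, 2 rose and 2 fell. *Slc16a1*, a lactate transporter, fell from 447 and 318 CPM to 157 and 83.8 CPM (log2 fold change -1.67, adjusted p = 0.0183), and *Abca6* rose from 7.64 and 8.95 CPM to 52.6 and 25.9 CPM (log2 fold change 2.24, adjusted p = 0.00931). Without endotoxemic library 1 or 2 the carriers and the Nrf2 genes had 0 calls, the conjugating enzymes 2, and the growth hormone axis 1 and 0.

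Sex-biased liver genes, which are set in the liver mainly by the pulse pattern of growth hormone, followed the sex-linked transcripts. Of 35 male-biased genes tested, 16 rose and none fell (median 1.73), and 30 had both LGK974 libraries above. Of 48 female-biased genes tested, 21 fell and 1 rose (median -1.71, the same with genes at 0 counts set to their bounds). *Cyp4a12a*, a male-specific P450, was at 2.78 and 0.850 CPM in control, 5.78 and 4.37 CPM in endotoxemic and 275 and 154 CPM in LGK974 libraries (log2 fold change 5.40, SE 0.48, adjusted p = 0.000672). *Mup20* (darcin), a male urinary pheromone, rose from 131 and 149 CPM to 2520 and 1226 CPM (log2 fold change 3.75, SE 0.34, adjusted p = 0.000896). Both LGK974 libraries were above all control and endotoxemic libraries for both genes.

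*Sult2a1*, a female-specific sulfotransferase, was at 289 and 310 CPM in control, 27.0 and 25.6 CPM in endotoxemic and 0 CPM in both LGK974 libraries, at least 122-fold lower against 3 counts per library (adjusted p = 3.33e-05). *Cyp2b9* fell from 27.6 and 30.7 CPM to 0.528 and 0.0677 CPM (log2 fold change -6.62, SE 0.45, adjusted p = 0.000127). Mup, Sult2a and Cyp4a12 genes are near-identical copies, so that the split of reads within each family is uncertain. Of the 16 male-biased rises 8 or 9 remained in number without endotoxemic library 1 or 2, and of the 21 female-biased falls 14 or 12. Without the sex-biased lists, 310 genes were higher and 284 lower. The lists are not complete, and the 310 still hold Mup genes that are not on the male-biased list.

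**Figure D5:**
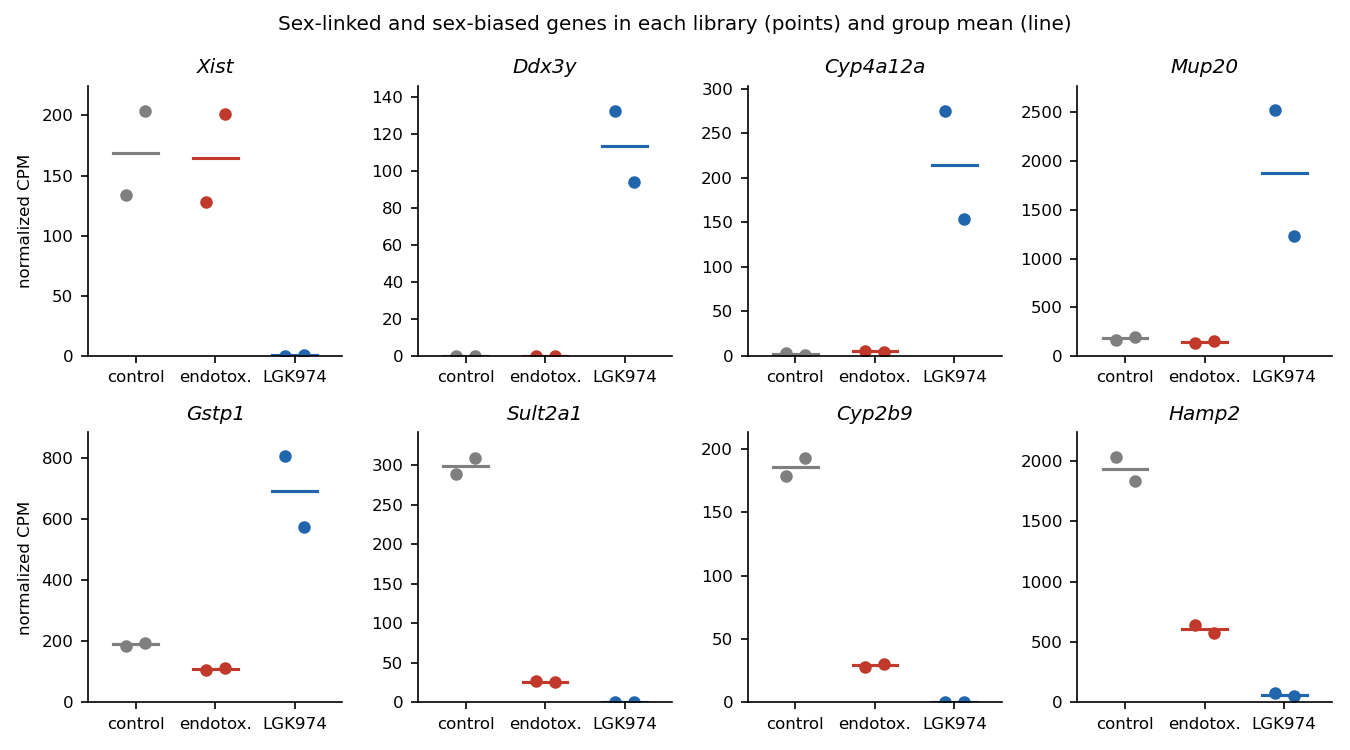
Normalized CPM of 2 sex-linked and 6 sex-biased genes in each library (points) and group mean (lines), with a linear axis from 0 in each panel. *Xist* is at 128 CPM or more in every control and endotoxemic library and below 1 CPM in the LGK974 libraries, *Ddx3y* shows the reverse, and the sex-biased genes part the LGK974 libraries from both other groups.

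Markers of other cells changed in few members. Of 22 stellate cell and fibroblast markers 3 rose: *Col1a2* from 10.1 and 9.17 CPM to 22.1 and 19.9 CPM, *Col1a1* from 4.80 and 2.56 CPM to 11.6 and 10.6 CPM and *Acta2* from 1.09 and 0.853 CPM to 8.53 and 3.86 CPM. Their levels came close to control for *Acta2* and stayed below it for both collagens. Of 19 sinusoidal endothelial markers 2 fell, *Clec4g* and *Ehd3*, and 1 rose, *Maf*. These calls became 0 without either endotoxemic library, and 4 higher and 3 lower without LGK974 library 1. The stellate cell rises kept their sign and missed the threshold without any one of the endotoxemic or control libraries.

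*Hba-a2*, *Hbb-bs* and *Hbb-bt*, globin genes of red blood cells, were lower in the LGK974 group, *Hbb-bs* at 1914 and 2446 CPM in endotoxemic and 1059 and 820 CPM in LGK974 libraries, against 804 and 902 CPM in control (log2 fold change -1.21, adjusted p = 0.0181). They were the 3 calls of 10 erythroid markers tested, the count became 1 without any one of the endotoxemic or control libraries, and globin copies share reads. Of 7 platelet markers 6 had a log2 fold change below 0, with a median of -0.99, and 4 had both LGK974 libraries below. The 1 that passed, lower, encodes a chemokine and is not described here. *Itga2b*, the platelet integrin, was at 3.49 and 3.94 CPM in endotoxemic and 2.11 and 1.62 CPM in LGK974 libraries. Of 16 markers of bile duct and gallbladder epithelium 1 passed, 5 were below 0 and 11 overlapped between the groups. *Dmbt1*, the 1 that passed, a mucin-like protein of bile duct epithelium, had 0 counts in both endotoxemic libraries and 39.7 and 7.51 CPM in the LGK974 libraries, at least 73.0-fold higher against 3 counts per library, or 23.2-fold from LGK974 library 2 alone (adjusted p = 0.00931), with 9.10 and 9.15 CPM in control. It missed the threshold without either endotoxemic library.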

How the data were processed

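Liver RNA was sequenced by the authors from transcript ends (QuantSeq kit, 500 ng RNA per library). The authors deposited whole-number read counts on 23282 rows per library, without normalization; the submitters' processing notes name Bowtie2, mm10 and edgeR with no role. No column lacked a sample. Endotoxemic libraries 3 and 4 were dropped as copies.

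Counts of all 6 distinct libraries were fitted in edgeR 4.0.16 (R 4.3.3; filterByExpr by group, TMM), with the group as the only factor and 3 residual degrees of freedom. LGK974 was tested against endotoxemic by edgeR's quasi-likelihood F test, and p-values were adjusted after Benjamini and Hochberg over 12701 rows, at a threshold of 0.05; the common biological coefficient of variation was 0.239. SEs were derived from that test. CPM are TMM-normalized. On simulated counts (200 of 12701 genes changed by 2 on the log2 scale in this comparison), 96.5% were recovered, 4.93% of calls were false, and no call was made without a change. The simulation gave all genes and libraries the common spread, gave control and endotoxemic libraries the same means, and changed no genes of low count. The LGK974 libraries differed more from each other than the endotoxemic ones, so these rates may not hold for the data.

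Rows were compared with RefSeq positions on GRCm38.p6. Reported rows are autosomal, in genomic order, with a unique symbol, and outside cytokine, NF-κB and Wnt genes, which removed 190 tested rows. These were taken by symbol, and *Pf4*, a chemokine, was missed and is counted among the lower genes. No mitochondrial rows were present, and *Rn45s* took 4.80% to 9.38% of counts.

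Members and lists were chosen with earlier results of these data known. Named genes are the 12 largest rises and falls with non-overlapping libraries and at least 5 CPM in a group, the 3 largest rises and falls of each list, the 2 most abundant members of a list with no call, sex-linked genes, abundant cell markers and LPS-response and hepatocyte genes. Others were named after their values were seen, and some genes taken by the rule are not reported here. *Saa1* and *Saa2* were on rows out of order. Lists are described by counts and medians, not tested. Promoter windows were taken from RefSeq and searched in Python 3.11.15. Alternatives were another normalization, DESeq2 1.42.0, other filters on rows, the 4 libraries alone, a replicate block and leaving out each library.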

Additional observations from a re-analysis of the deposited data

How the results depend on the processing

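With 327 genes higher and 305 lower in the LGK974 group, the counts were 544 and 541 with DESeq2, 808 and 703 with no filter on low counts, and 96 and 135 when the fit held the endotoxemic and LGK974 libraries alone. Leaving out each library in turn gave 19 to 1085 higher and 20 to 924 lower. The cause of these shifts was not tested. With 2 libraries per group, a group that loses a library adds nothing to the estimate of the spread. Other normalization factors, a filter of at least 10 counts, leaving out rows, and leaving out genes of the sex-biased lists moved each of these totals by less than 1.5 times. Single lists could move more: with the filter of at least 10 counts, female-biased falls went from 21 to 9 and clock falls from 4 to 2. None of the 632 genes took the opposite sign in any alternative that tested it. Over 145 named genes and the 14 alternatives that give values per gene, a gene's call was lost 304 times when a library was left out and 64 times otherwise, of which 52 were with the 4 libraries alone. Deviations from the group means of libraries with one number correlated at 0.06 between endotoxemic and LGK974, 0.14 between control and endotoxemic and -0.0075 between control and LGK974 libraries, so the replicate numbers were not taken as pairs. With the replicate block, 298 genes were higher and 299 lower. Precision is limited by 2 libraries per group and, for genes near 3 counts, by depth.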

Other observations

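Outside the lists, 428 genes passed the test, 245 higher and 183 lower in the LGK974 group. The genes named here were chosen after their values were seen. *Plin5*, a droplet coat protein, was at 61.0 and 46.5 CPM in control, 5.46 and 3.94 CPM in endotoxemic and 24.8 and 45.7 CPM in LGK974 libraries (log2 fold change 2.91, adjusted p = 0.00399). *G0s2*, an inhibitor of triglyceride lipase, rose from 8.84 and 7.67 CPM to 47.3 and 44.2 CPM (log2 fold change 2.47, adjusted p = 0.000656), and *Acsl1*, which activates fatty acids, from 16.0 and 19.9 CPM to 43.6 and 59.3 CPM, against 664 and 736 CPM in control. *Pank1*, a kinase of coenzyme A synthesis, rose from 19.4 and 20.3 CPM to 60.5 and 116 CPM. *Cirbp*, the cold-inducible RNA-binding protein, was at 19.9 and 15.9 CPM in control, 9.60 and 7.89 CPM in endotoxemic and 77.4 and 27.2 CPM in LGK974 libraries (log2 fold change 2.58, adjusted p = 0.0161).

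Among the falls, *Ubd*, a ubiquitin-like modifier, went from 204 and 195 CPM to 45.1 and 9.47 CPM, with 0.650 and 1.18 CPM in control. *Slfn4*, a Schlafen gene of myeloid cells, fell from 41.8 and 37.8 CPM to 4.45 and 5.01 CPM (log2 fold change -3.07, adjusted p = 0.00129), and 5 of 7 tested Slfn genes were lower. *Ch25h*, cholesterol 25-hydroxylase, fell from 59.1 and 38.7 CPM to 12.8 and 9.34 CPM, with 0 and 0.392 CPM in control. *Malat1*, a nuclear noncoding RNA, was lower in LGK974 (468 and 481 CPM) than in endotoxemic (1309 and 1584 CPM) and control libraries (893 and 984 CPM). Of 20 tested Mup genes, 16 were higher and none lower, with a family sum of 34409 and 39962 CPM in control, 23776 and 27923 CPM in endotoxemic and 94995 and 47833 CPM in LGK974 libraries, and reads of these copies cannot be assigned with certainty.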
